A study of Mus musculus with 6 samples.

Results

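The inhibitor of DNA binding genes Id1, Id2, Id3 and Id4 and the SMAD genes of the bone morphogenetic protein (BMP) pathway were read by gene name from a table of transcript levels in mouse retina. They make up 10 of the 26147 genes in the table: the 4 Id genes, the receptor-regulated SMADs Smad1, Smad5 and Smad9, the common SMAD Smad4, and the inhibitory SMADs Smad6 and Smad7. The study compared retinas at embryonic day 13.5 from 3 wild-type (WT) and 3 Tbx3 conditional knockout (Tbx3 cKO) libraries of mice kept on a C57BL/6J background. The knockouts carried the Dkk3-Cre transgene and 2 recombined floxed Tbx3 alleles (Dkk3-Cre+;Tbx3 ∆Fl/∆Fl), and the wild types were siblings without Cre that carried 1 floxed allele (Tbx3 Fl/+). Dkk3-Cre acts in the progenitors of the early retina, whereas vessels and blood have another origin. Cre was present in the knockouts alone, so its presence and the loss of Tbx3 cannot be told apart.

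BMP ligands bind paired serine/threonine kinase receptors, which phosphorylate SMAD1, SMAD5 and SMAD9 at their carboxyl end. These join SMAD4 and enter the nucleus, where Id genes are among the most direct and widely shared targets. ID proteins have a helix-loop-helix domain but no basic DNA-binding region, and by pairing with E proteins they hold back basic helix-loop-helix factors that drive neurons to form. SMAD6 and SMAD7 are themselves induced by the pathway and restrain it. In the developing eye, BMP signalling is strongest dorsally, where Tbx2, Tbx3 and Tbx5 are expressed. The table holds transcript levels, so phosphorylation and nuclear entry of SMAD proteins were not measured.

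Depth was an estimated 26099853 to 27173677 reads per library in WT and 21482340 to 23319881 in Tbx3 cKO, so every knockout library was shallower than every wild type. Tbx3 had normalized read counts of 1998, 2558 and 2577 in WT and 40.3, 47.8 and 58.9 in Tbx3 cKO, as the labels have it. The 9 markers of retinal progenitors, Pax6 among them, were present in every library, with a summed level of 115458 to 127607 in WT and 54172 to 108012 in Tbx3 cKO. Their directions were mixed, with 6 negative and 3 positive log2 fold changes (median -0.45) and Pax6 at 0.0056. The libraries WT 1 and Tbx3 cKO 3 stood apart within their groups. Summed over 10 ganglion cell markers, WT 1 reached 107728 against 21315 and 35386 in the other wild types, while Tbx3 cKO 3 had 1365 against 15805 and 8725 in the other knockouts. All 10 ganglion cell markers and all 10 neurogenic progenitor markers had a negative log2 fold change, and Pou4f2 and Neurod1 were at 0 in Tbx3 cKO 3. Over all genes tested, 52.0% had a negative log2 fold change. Of the markers of other cell types, 10 of 10 for red blood cells (sum 64177 to 97367 in WT, 195120 to 634439 in Tbx3 cKO), 10 of 10 for macrophages (785 to 1476, 2930 to 6055), 9 of 10 for endothelium (4215 to 4671, 3661 to 5879), 9 of 10 for mural cells and mesenchyme (1041 to 6815, 2629 to 12755) and 9 of 9 for pigment epithelium (945 to 5820, 5795 to 27700) had a positive log2 fold change. None of these was at 0 in any library. The endothelial sum includes Kdr, the 1 member with a negative log2 fold change (-0.78), at 4232, 2427 and 3066 in WT and 2978, 2301 and 902 in Tbx3 cKO. Without it the other 9 summed to 440, 1788 and 1253 in WT and 2901, 1361 and 3422 in Tbx3 cKO, and the median log2 fold change of all 10 was 1.40. Ciliary margin markers were positive in 7 of 10 (15236 to 30006, 33085 to 41336), and lens markers were negative in 10 of 10 with sums that overlapped fully (617 to 169035, 596 to 114074). The part of these tissues in the values below was not tested, and in bulk RNA fewer cells of a type cannot be told apart from less RNA per cell.

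All 4 Id genes had lower transcript levels in every Tbx3 cKO library than in any WT library. By limma-trend across 18914 tested genes (values taken as log2(value + 1), Benjamini-Hochberg adjustment, threshold 0.05), 1 of the 10 Id and SMAD genes passed, Id1, which fell. Of all tested genes 0.0317% passed as lower and 0.0317% as higher. At an unadjusted p under 0.05, 5 of the 10 were lower (Id1, Id2, Id3, Id4 and Smad9), against 7.16% of all genes lower and 6.39% higher. Without overlap between the groups, 6 of the 10 were lower (those 5 and Smad4), against 11.7% of all genes lower and 10.6% higher. The median log2 fold change of the 10 genes was -0.56, beside -0.02 over all genes tested.

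**Figure D1:**
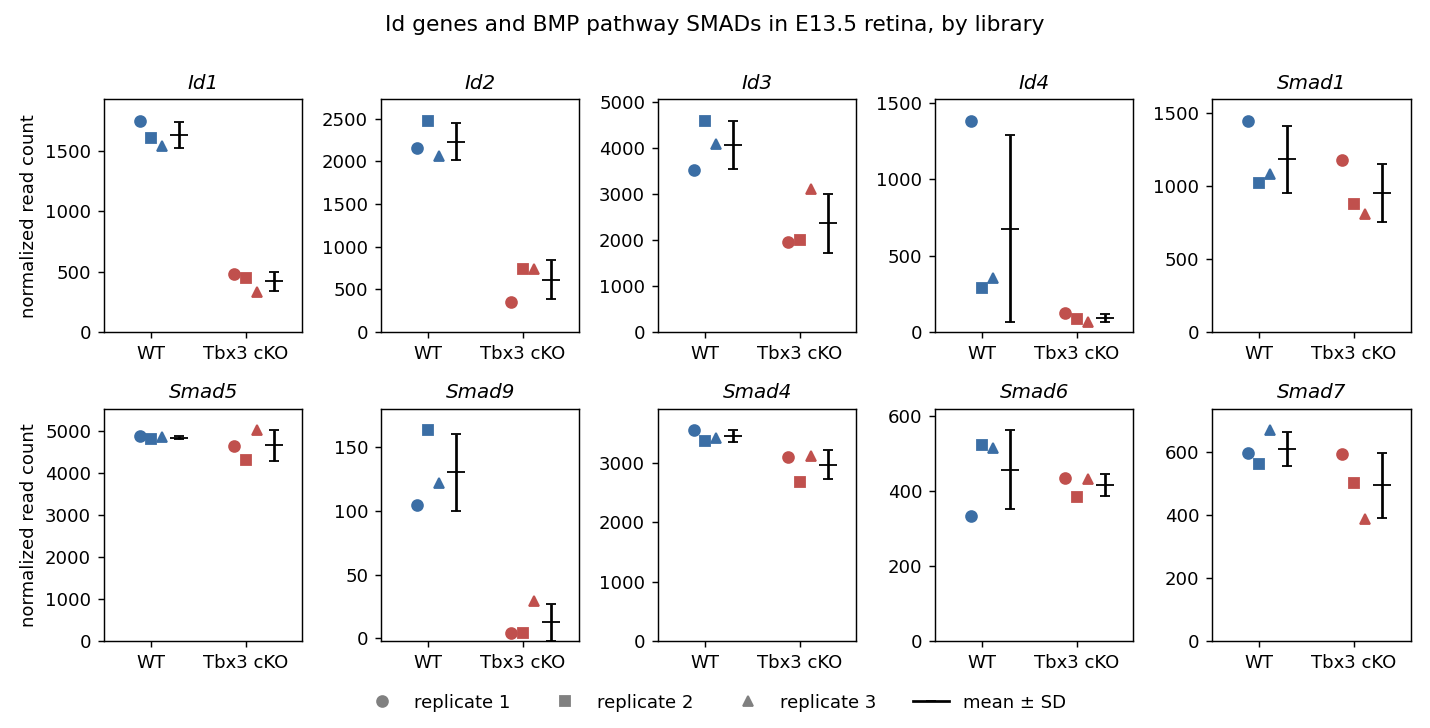
Normalized read counts of the 10 genes in each library, on linear axes that include 0. Points are the 3 libraries of each group by replicate number, and the black marks are mean ± SD (n = 3). The 4 Id genes, Smad9 and Smad4 show no overlap between groups, while Smad1, Smad5, Smad6 and Smad7 do.

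Id1 (ENSMUSG00000042745), the Id gene most often used as a readout of BMP signalling, had values of 1753, 1610 and 1545 in WT and 484, 448 and 334 in Tbx3 cKO. The lowest wild type was 3.19-fold above the highest knockout, and the wild types differed among themselves by 1.13-fold. The mean of the knockouts was 25.8% of the WT mean (1636 ± 106 against 422 ± 78.3, SD, n = 3 each), with a log2 fold change of -1.97 (SE 0.16, limma adjusted p = 0.0180), and 2.22% of tested genes had a more negative one. The exact permutation test gave p = 0.1 for Id1, the smallest that 3 against 3 libraries allow, and the same for Id2, Id3, Id4, Smad9 and Smad4. The call was kept without Tbx3 cKO 3 (limma adjusted p = 0.0211) and lost without any of the 5 others, where the adjusted p was 0.0636 without WT 1, 0.102 without WT 2, 0.157 without WT 3, 0.0802 without Tbx3 cKO 1 and 0.115 without Tbx3 cKO 2. The log2 fold change itself moved little over these fits, between -2.08 and -1.81.

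Id2 (ENSMUSG00000020644), which in the retina is expressed in progenitors and in some neurons, had values of 2153, 2478 and 2069 in WT and 348, 744 and 744 in Tbx3 cKO. The 3 wild types were close together, and Tbx3 cKO 1 was the lowest knockout, at 15.6% of the WT mean against 33.3% in both others. The log2 fold change was -1.95 (95% interval -2.64 to -1.25, limma adjusted p = 0.144), so Id2 did not pass over all genes. It did in the fit that weighted libraries by their quality (adjusted p = 0.0292).

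Id3 (ENSMUSG00000007872), another direct target of the pathway, had 3515, 4573 and 4088 in WT and 1964, 2004 and 3104 in Tbx3 cKO. Tbx3 cKO 1 and 2 were near each other at 48.4 and 49.4% of the WT mean, and Tbx3 cKO 3 stood at 76.5%, only 1.13-fold below the lowest wild type. The log2 fold change was -0.81 (95% interval -1.28 to -0.34, limma adjusted p = 0.286). With WT 1 and Tbx3 cKO 3 both left out, a choice made after seeing the data, it was -1.12 and passed (adjusted p = 0.0266).

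Id4 (ENSMUSG00000021379), an Id gene of neural progenitors, had values of 1385, 290 and 356 in WT and 122, 87.6 and 64.2 in Tbx3 cKO. WT 1 was 4.77-fold above WT 2, so the SD of the wild types (614) nearly matched their mean (677). The lowest wild type was still 2.38-fold above the highest knockout. The same library, WT 1, had the highest summed ganglion cell markers, and their part in the Id4 value was not tested. The log2 fold change was -2.55 (95% interval -3.95 to -1.16, limma adjusted p = 0.281) and was -1.63 with WT 1 and Tbx3 cKO 3 both left out. Id4 overlaps the antisense gene A330033J07Rik and the noncoding gene Gm49291 in GENCODE M21. Whether the counting used strand is not stated, so reads of these genes cannot be told apart from those of Id4. The table lists Gm49291 at 8.40, 0.940 and 1.79 in WT and 0, 6.83 and 5.26 in Tbx3 cKO, and A330033J07Rik was not analysed here.

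The order of the knockouts was not shared by the Id genes. Tbx3 cKO 3, which held the least neuronal and the most blood, mesenchyme and pigment transcripts, was the lowest library for Id1 and Id4 and the highest for Id3, and was level with Tbx3 cKO 2 for Id2. Averaged over the 4 genes as the difference in log2 from each gene's WT mean, the knockouts stood at -1.89, -1.76 and -1.81, and the wild types at 0.31, -0.13 and -0.18. In this mean the opposite deviations of single genes offset each other, so its closeness is no measure of agreement between the knockouts gene by gene.

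Among the receptor-regulated SMADs, Smad9 stood apart from Smad1 and Smad5. Smad9 (ENSMUSG00000027796), also known as SMAD8, is the least abundant of the 3 and its own transcript responds to BMP. Its values were 105, 163 and 122 in WT and 4.03, 4.55 and 29.5 in Tbx3 cKO. The knockout values stand for an estimated 4, 4 and 28 reads, whose exact Poisson 95% intervals (1.09 to 10.2, 1.09 to 10.2 and 18.6 to 40.5 reads) cover counting error only. Even the highest knockout was 3.55-fold below the lowest wild type. The log2 fold change was -3.76 (95% interval -5.49 to -2.04, limma adjusted p = 0.209), and 0.333% of tested genes had a more negative one. Smad9 passed without Tbx3 cKO 3 (log2 fold change -4.61, adjusted p = 0.0381), with that library and WT 1 both left out (-4.75, adjusted p = 0.0281) and in the weighted fit (-4.04, adjusted p = 0.0395). These were 3 of 17 alternatives. With any other single library left out, Smad9 did not pass (limma adjusted p of 0.277 to 0.568).

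Smad5 (ENSMUSG00000021540), a main carrier of the BMP signal, had 4869, 4802 and 4840 in WT and 4636, 4299 and 5020 in Tbx3 cKO. The wild types agreed within 1.01-fold and the knockouts spread around them. Its log2 fold change of -0.06 had a 95% interval of -0.28 to 0.16 (limma adjusted p = 0.775), and its sign turned (0.047) under quantile normalization. Smad1 (ENSMUSG00000031681), the close relative of Smad5, had 1449, 1020 and 1080 in WT and 1182, 877 and 806 in Tbx3 cKO. In both groups the first library was the highest, and the groups overlapped. The log2 fold change of Smad1 was -0.31 (95% interval -0.77 to 0.15, limma adjusted p = 0.479), and -0.04 with WT 1 and Tbx3 cKO 3 both left out. Without Tbx3 cKO 1 it was -0.47 (limma unadjusted p = 0.0429, adjusted p = 0.337).

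Smad4 (ENSMUSG00000024515), the partner that BMP SMADs share with those of TGF-beta and activin, had 3554, 3360 and 3421 in WT and 3101, 2682 and 3116 in Tbx3 cKO. The groups did not overlap, by a margin of 1.08-fold. The mean in Tbx3 cKO was 86.1% of that in WT, with a log2 fold change of -0.22 (95% interval -0.45 to 0.01, limma adjusted p = 0.376).

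The groups overlapped for both inhibitory SMADs. Smad6 (ENSMUSG00000036867), which preferentially restrains BMP receptors, had 334, 520 and 514 in WT and 433, 382 and 432 in Tbx3 cKO, so that the lowest value of all was a wild type, WT 1. Its log2 fold change was -0.11 (95% interval -0.59 to 0.38, limma adjusted p = 0.822) and was 0.0019 without WT 2, -0.32 without WT 1 and -0.34 with WT 1 and Tbx3 cKO 3 both left out. Smad7 (ENSMUSG00000025880), which restrains both BMP and TGF-beta receptors, had 595, 563 and 669 in WT and 594, 501 and 386 in Tbx3 cKO. Tbx3 cKO 1 lay within the wild-type range and Tbx3 cKO 3 was the lowest. Its log2 fold change was -0.32 (95% interval -0.76 to 0.12, limma adjusted p = 0.449). It ran from -0.46 without Tbx3 cKO 1 to -0.16 without Tbx3 cKO 3. Both genes are strongly expressed in endothelium, of whose markers 9 of 10 had a positive log2 fold change (median 1.40). The part of endothelium in the Smad6 and Smad7 values was not tested. A p above the threshold does not show that these SMADs were alike in the 2 groups, and the intervals give the differences that remain possible.

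Set side by side, the 95% intervals of Id1, Id2, Id4 and Smad9 lay wholly below those of Smad1, Smad4, Smad5, Smad6 and Smad7, while that of Id3 overlapped several of them. No test of the difference between genes was run. As the mean difference in log2 from the WT mean, the constitutive SMADs (Smad1, Smad5 and Smad4) stood at -0.07, -0.31 and -0.21 in the 3 knockouts and at 0.12, -0.08 and -0.04 in the wild types. Smad9, also a receptor-regulated SMAD, was kept out of this set and stood at -4.68, -4.54 and -2.08 in the knockouts. The values of the constitutive set depend on that choice and would be lower in the knockouts with Smad9 included. The inhibitory pair stood at -0.04, -0.25 and -0.35 in the knockouts and at -0.22, 0.05 and 0.17 in the wild types. In the constitutive and the inhibitory set, Tbx3 cKO 1 lay within the range of the wild types. Tbx3 cKO 2 and Tbx3 cKO 3 lay below every wild type in both sets. In the Id set all 3 knockouts lay below every wild type.

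**Figure D2:**
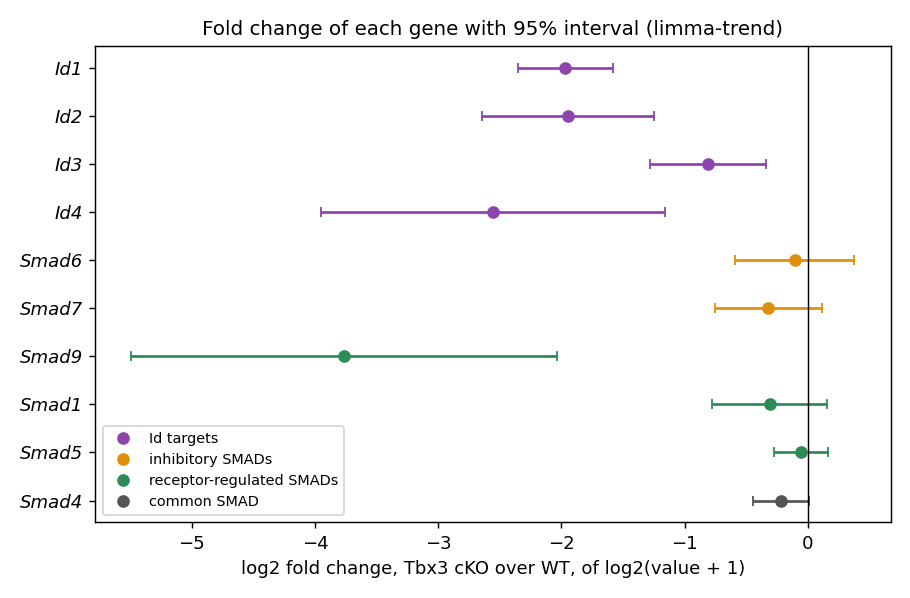
Log2 fold change of each gene in Tbx3 cKO over WT, of log2(value + 1), with 95% intervals from limma-trend (3 libraries a group) and colours by role. Id1 at -1.97 has the narrowest interval among the Id genes and Smad9, and the intervals of Smad1, Smad4, Smad5, Smad6 and Smad7 include 0.

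Levels of different genes were compared per kilobase of exon (union of GENCODE M21 exons). In WT the order of mean levels was Id3 (2266 per kb), Id1 (1410), Smad4 (928), Id2 (916), Smad5 (652), Smad1 (189), Id4 (176), Smad6 (142), Smad7 (135) and Smad9 (24.2). The ranges of neighbours overlapped for Smad4 with Id2, for Smad1 with Id4, for Id4 with Smad6 and for Smad6 with Smad7, so these pairs did not differ beyond their spread. In Tbx3 cKO Id3 stayed first at 1316 per kb, and Smad4 (799) and Smad5 (627) stood above Id1 (364) and Id2 (251). Below them came Smad1 (153), Smad6 (130), Smad7 (109), Id4 (23.7) and Smad9 (2.36), and the ranges overlapped for Id1 with Id2, Id2 with Smad1, Smad1 with Smad6 and Smad6 with Smad7. Id1 ranged from 1332 to 1511 per kb in WT, above all Smad4 values (905 to 957), and from 288 to 417 in Tbx3 cKO, below all of them (722 to 839).

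**Figure D3:**
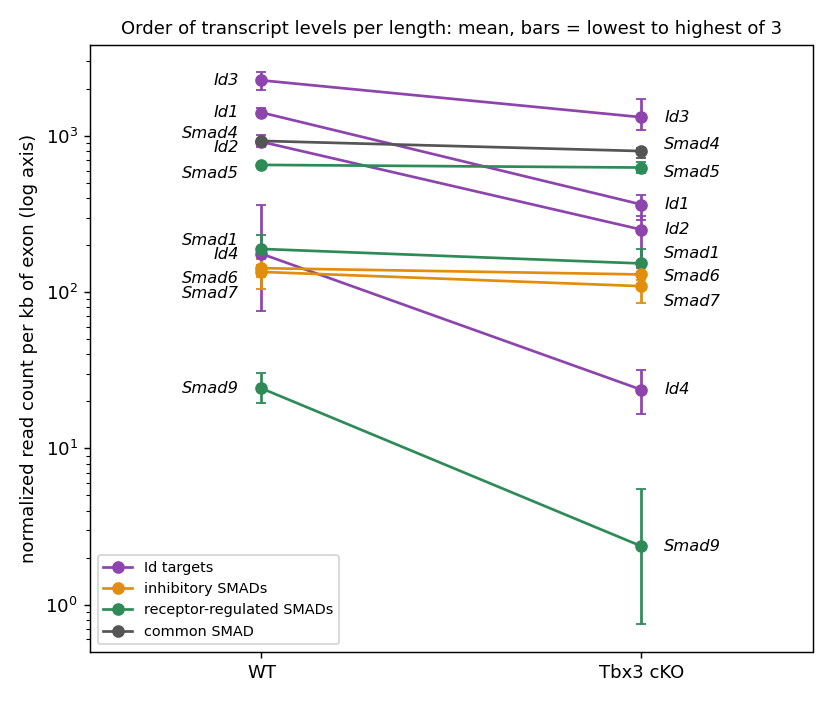
Mean normalized read count per kilobase of exon in WT and Tbx3 cKO on a log axis, with bars from the lowest to the highest of 3 libraries. The line of Id1 crosses those of Smad4 and Smad5, and the line of Id2 crosses that of Smad5. The line of Id4 crosses those of Smad6 and Smad7, and Id3 is highest in both groups.

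Promoter windows of the members were taken from RefSeq (build GRCm38.p6) because the Id genes and Smad9 had lower values together. Of the 10 genes, 7 had a window in the table (Id2, Id3, Id4, Smad1, Smad5, Smad6 and Smad9), and Id1, Smad4 and Smad7 did not. The 250 bases before each start site were searched on both strands for GGCGCC, a GC-rich element that BMP SMADs can bind and that reads the same on both strands. They were also searched for the SMAD palindrome GTCTAGAC, for the shorter SMAD sequence CAGACA and for the T-box core GGTGTGA. None of these motifs contains another. GGCGCC was present in Id2, Id4, Smad9 and 1 of the 3 windows of Smad5, and in 9.59% of the 32851 windows in the table. That share counts windows, not genes, and was not matched for GC content, so enrichment in these genes was not tested. It was absent from the windows of Id3, which also had lower values, and of Smad1 and Smad6. The Smad9 match lay outside the longest stretch of its window that is free of annotated exons (chr3:54755332-54755454). The Smad5 match lay after another start site of Smad5 (chr13:56703010), so inside the annotated gene. The 26 bases around each match are shown because they set members with low values in Tbx3 cKO beside one, Smad5, whose groups overlapped, with GGCGCC in capitals and each on the strand of its gene:
Id2 (chr12:25096308-25096333, minus strand, match starting 231 bases before the start site): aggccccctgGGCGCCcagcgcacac
Id4 (chr13:48260958-48260983, plus strand, 148 bases before): cgggttgcccGGCGCCccgccctcgc
Smad9 (chr3:54755521-54755546, plus strand, 51 bases before): acggccgcctGGCGCCcttccagcgc
Smad5 (chr13:56703023-56703048, plus strand, 19 bases before): ccggcgagcgGGCGCCgagcgcttgt

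The full window of Id4 shows how GC-rich its surroundings are, with the match in capitals:
Id4 (chr13:48260866-48261115, plus strand): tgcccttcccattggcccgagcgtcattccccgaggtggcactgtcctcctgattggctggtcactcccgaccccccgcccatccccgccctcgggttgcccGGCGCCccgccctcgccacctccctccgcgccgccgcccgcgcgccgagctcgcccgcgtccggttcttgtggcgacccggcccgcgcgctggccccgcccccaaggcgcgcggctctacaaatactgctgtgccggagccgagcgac
GTCTAGAC, CAGACA and GGTGTGA, which stand in 0.167, 17.1 and 3.33% of all windows, were found in none of the 9 windows of these genes. A match is a string of letters and no measure of binding, and the lack of one says only that these letters are not in this window.

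Other genes of the pathway were read from lists by role. Their counts stand beside these shares of all genes tested: 52.0% had a negative log2 fold change. At an unadjusted p under 0.05, 7.16% were lower and 6.39% higher. Among 7 BMP receptor genes, 5 had a negative and 2 a positive log2 fold change (median -0.20), and none passed over all genes. At an unadjusted p under 0.05, 1 was lower (Bmpr2, 4053 ± 792 against 3036 ± 440) and 2 were higher. Bmpr1b, a type I BMP receptor, had 1627, 1120 and 1553 in WT and 6476, 4085 and 2432 in Tbx3 cKO, without overlap (log2 fold change 1.50, limma adjusted p = 0.277). The endothelial receptor Acvrl1 had 13.1, 49.8 and 43.1 against 129, 44.4 and 172, which overlapped (adjusted p = 0.363). The widely expressed type I receptor Bmpr1a had 4797 ± 363 against 4294 ± 203 (SD, n = 3 each; adjusted p = 0.468).

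Of 21 tested ligand and extracellular modulator genes, 8 were negative and 13 positive (median 0.07). At an unadjusted p under 0.05, 2 were lower (Gdf6 and Fst) and 2 higher (Smoc1 and Bmp7), against 7.16% of all genes lower and 6.39% higher. Smoc1, a secreted modulator of BMP signalling, rose (1204, 896 and 1607 against 18296, 11619 and 10278, limma adjusted p = 0.0180), and it was the only one to pass. The dorsal ligand gene Gdf6 had 324, 459 and 457 in WT and 1.01, 4.55 and 12.6 in the knockouts, where the first value is about 1 read (log2 fold change -6.26, limma adjusted p = 0.0530). The ligand gene Bmp7 lay the other way without overlap, with 337, 760 and 649 against 2017, 1899 and 4396 (log2 fold change 2.22, adjusted p = 0.195). Bmp4, another dorsal ligand of the eye, was low in all libraries, at 80.6 ± 42.9 against 101 ± 62.5 (adjusted p = 0.811).

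Of 9 tested genes of other BMP responses, 8 were negative (median -0.81) and none passed, while 2 were lower at an unadjusted p under 0.05, Bambi and Hey1. Bambi, a pseudoreceptor that BMP induces and that damps signalling, had 365, 570 and 491 in WT and 96.8, 174 and 116 in Tbx3 cKO. Its log2 fold change of -1.89 (limma adjusted p = 0.134) was near those of Id1 and Id2. Hey1, a target of Notch as well as BMP, had 1139, 772 and 837 against 631, 361 and 277 (adjusted p = 0.309). Both were without overlap, as was the homeobox gene Dlx2, with 1270, 860 and 1111 against 762, 401 and 3.16 (adjusted p = 0.429). The 3 Tbx3 cKO libraries were far apart in Dlx2, with Tbx3 cKO 3 the lowest.

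Genes that set the turnover or nuclear action of SMADs were negative in 16 of 17 (median -0.17), with none past the threshold and 3 lower at an unadjusted p under 0.05 (Usp9x, Zeb2 and Skil). Usp9x, a deubiquitinase that acts on SMAD4, had 11034, 10091 and 10183 against 8614, 8086 and 7964 (limma adjusted p = 0.303), and Zeb2, a SMAD-binding repressor, had 4731, 4622 and 4824 against 3732, 3262 and 2374 (adjusted p = 0.311). The ubiquitin ligase gene Smurf1 had 1204 ± 197 against 1155 ± 104 (adjusted p = 0.886). The SMADs of TGF-beta and activin did not pass: Smad2 had 5530, 2954 and 3327 against 3029, 2801 and 2150 (adjusted p = 0.391), with WT 1 well above the rest, and Smad3 had 2691 ± 364 against 2912 ± 289 (adjusted p = 0.693).

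The E proteins that ID proteins bind had small differences beside those of the Id genes. Tcf4 had 4867, 4850 and 4830 in WT and 4819, 4518 and 5138 in Tbx3 cKO, with a log2 fold change of -0.01 (95% interval of -0.22 to 0.20, limma adjusted p = 0.968). Tcf12 had 7115, 7626 and 7646 against 6621, 6826 and 6735, without overlap (log2 fold change -0.15, adjusted p = 0.440). Tcf3 had 6613 ± 674 against 6951 ± 577 (adjusted p = 0.776). Their summed level was 17844 to 19641 in WT and 18251 to 18972 in Tbx3 cKO, while that of the 4 Id genes was 8057 to 8952 and 2918 to 4246.

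**Figure D4:**
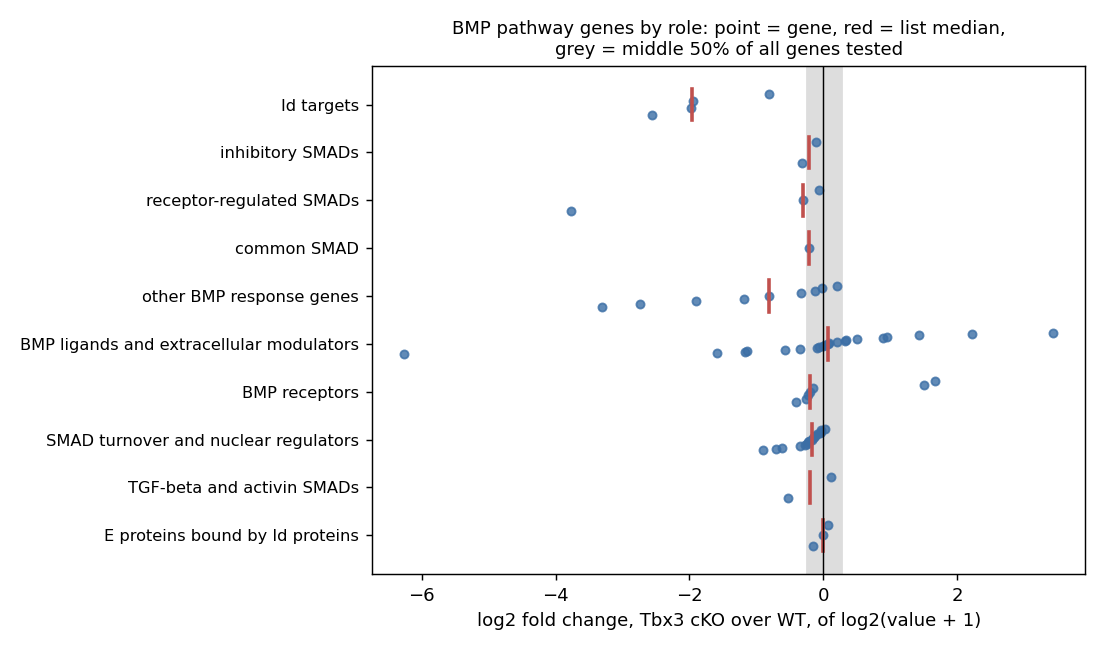
Log2 fold changes of tested genes in each role list of the BMP pathway, with a red bar at the list median and a grey band over the middle 50% of all genes tested (-0.25 to 0.27). The Id genes all lie left of the band, the 3 E proteins lie inside it, and ligands and modulators spread to both sides. Most receptors and SMAD regulators lie in or near it, except Bmpr1b (1.50) and Acvrl1 (1.67) to the right and Nedd4l (-0.90), Skil (-0.70) and Zeb2 (-0.62) to the left.

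The genes most like Id1 across the 6 libraries, by the root mean square difference of centred log2 profiles among 11629 genes with a mean of at least 100, were Efnb2 (0.24), Adgrb2 (0.24), Pcdh17 (0.30) and Adam12 (0.36). Efnb2, the ephrin ligand of dorsal retina, had 6798, 9447 and 8506 in WT and 2420, 2826 and 2081 in Tbx3 cKO. Adgrb2, an adhesion receptor, had 577, 493 and 482 against 203, 218 and 120. By this measure Id2 differed from Id1 by 0.50, Id3 by 0.71 and Id4 by 0.73, so none of the other Id genes was among the nearest. The genes most like Smad4 were Vps13b (0.03), Aak1 (0.03), Zc3h13 (0.03) and Trip12 (0.03). In all, 570 genes came within 0.1 of Smad4 and 0 came that near to Id1. Profiles were centred but not scaled, so the size of the group difference enters this measure. These counts are therefore no result separate from the fold changes. Smad5 differed from Smad4 by 0.09.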

How the data were processed

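Per the labels' protocols, polyadenylated RNA of embryonic day 13.5 retina was made into strand-specific libraries. The submitters' processing notes name Partek, STAR 2.7.8a and cutadapt 4.2 and the build GRCm39 (mm39). What each did, which counter was used, whether it used strand and how values were scaled is not stated there. The values the authors deposited are a signal, normalized read counts per gene. The most frequent low value (0.897 to 1.14) was taken as 1 read, and 76.1 to 78.2% of values up to 20 reads lay within 0.02 reads of a whole number, so whole reads were not recovered for all genes. A value of 0 allows 3 reads (2.69 to 3.41 in normalized units, counting error only).

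The fit took the 18914 genes that reached 10 in 3 or more libraries and left out 7233. All 10 genes described passed this filter. Groups were compared by limma-trend (limma 3.58.1, R 4.3.3) on log2(value + 1), two-sided, so fold changes of low genes are understated. The steps were tested on simulated data with the same spread setting for all genes and libraries. No simulated library stood apart as WT 1 and Tbx3 cKO 3 did, so that test does not cover such libraries. Single genes were also compared by exact two-sided permutation. The labels do not say which animals or litters made up a library, so p-values measure the spread between these libraries, which may be technical. Exon lengths are from GENCODE M21, matched on gene identifier. Promoter coordinates are those of GRCm38.p6, not of the authors' build. Bases inside annotated exons were left out of the longer window, but not out of the 26 bases around each match.

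The members and gene lists were chosen with earlier results of these data known. Named were the 10 genes, Tbx3, the 2 genes of smallest p in each pathway list, and the 4 nearest to Id1 and to Smad4. Bmpr1a, Bmpr2, Bmp4, Bmp7, Fst, Skil, Nedd4l, Dlx2, Kdr, Smurf1, Pax6, Pou4f2, Neurod1 and Gm49291 were added after their values were seen, as was Tcf4. A further progenitor marker is not reported here. Alternatives were other pseudocounts, filters, scalings, a replicate block, robust and weighted fits, and leaving out libraries.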

Additional observations from a re-analysis of the deposited data

How the results depend on the processing

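Id1 was called in 12 of 17 alternatives and lost with 5 single libraries left out, as given above. Over all 17, the log2 fold change ran from -2.08 to -1.76 for Id1, -2.15 to -1.58 for Id2, -1.12 to -0.69 for Id3, -2.98 to -1.63 for Id4 and -4.75 to -3.21 for Smad9, each at an unadjusted p under 0.05 in all 17. The sign turned for Smad5 under quantile normalization (0.047) and for Smad6 without WT 2 (-0.32 to 0.0019 with each library left out), and was kept for the other 8 genes. Without Tbx3 cKO 1, 7 of the 10 genes were lower at an unadjusted p under 0.05. Among them were Smad1 (limma unadjusted p = 0.0429) and Smad7 (limma unadjusted p = 0.0410). Smad4 was so with library weights (limma unadjusted p = 0.0345). The share of all genes at that p was not computed for these fits. Of the 10 genes, 3 passed with library weights (Id1, Id2 and Smad9) and 3 with WT 1 and Tbx3 cKO 3 both left out (Id1, Id3 and Smad9), and 0 to 2 with each library left out in turn. Over all genes, 12 passed, against 55 with library weights, 43 with both libraries left out and 1 to 10 with each left out in turn. Leaving out libraries fits fewer of them; the cause of the higher counts was not tested. Median shifts of all genes under other scalings were small (-0.02 in the main fit, 0.02 with equal totals).

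With the replicate number as a block, 1 of the 10 genes passed, and 13 genes passed in all, 10 of them among the 12. In that fit 6 of the 10 had an unadjusted p under 0.05 as lower, Smad1 among them (limma unadjusted p = 0.0372). Same-numbered libraries deviated together with correlations of 0.33, 0.02 and 0.04, and not every library correlated best with its own number, so the pairing was not taken as given.

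With 3 libraries a group, the 95% intervals of Smad1, Smad4, Smad6 and Smad7 in the main fit included 0. Differences of the size seen for these genes could not be told apart from 0 there.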
